A study of Mus musculus with 21 samples.

Results

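The adipocyte genes are 10 genes that mark fat cells, namely Plin1, Cidec, Lipe, Pnpla2, Lpl, Pparg, Adipoq, Retn, Fabp4 and Cfd, and they were followed in mouse prostate as a measure of the fat taken along with the gland. Members were chosen by name: every probe to which the platform annotation gives 1 of these symbols was taken. Of the 10 genes, 9 had a probe, 15 probes in all among the 45259 probes and 19057 gene symbols of the array. Cfd had no probe under that symbol and was not analysed here.

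White adipocytes store triglyceride in a single large droplet. Perilipin coats that droplet and holds lipases off it until adrenergic signals release fatty acids for use elsewhere. The nuclear receptor PPAR gamma, together with C/EBP factors, switches on most genes of the mature fat cell, and adipocytes also secrete hormones such as adiponectin. The rodent prostate lies in pelvic fat, so a dissected gland can carry adipocytes on its surface.

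RNA came from prostates of FVB/N males, 8 to 12 weeks old, and was hybridised to Illumina bead arrays. All animals, controls included, were heterozygous for an androgen reporter, luciferase under a thymidine kinase promoter with androgen response elements (Slp-HRE2). The genistein experiment had 4 groups of 3 arrays, from castrated and from intact males, each with vehicle or with genistein. Genistein, a soy isoflavone that binds estrogen receptors, was injected under the skin for 5 days, each mouse receiving 300 µg a day (10 µg/g) in mineral oil, 0.1 ml containing 2% dimethylsulfoxide. In castrated males the injections began 4 days after surgery. In the estradiol experiment, 5 arrays held intact males given vehicle and 4 held intact males given 17β-estradiol under the skin for 4 days, each mouse receiving 0.25 µg a day (10 µg/kg of body weight), in mineral oil with 0.5% ethanol. Glands were taken 24 hours after the last injection, and RNA was extracted with a kit made for lipid-rich tissue. Whether a sample is 1 animal or a pool, and which lobes it holds, is not in the labels, so the p-values reflect only sample-to-sample spread, part of which may be technical.

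The 21 arrays came from 5 chips, and all castrated groups lay on one chip and all intact groups of the genistein experiment on another, so the effect of castration and that of the chip cannot be told apart. Median intensity was 99.4 to 109 in the genistein experiment, where 42.3% to 46.4% of probes were detected, and 145 to 171.9 in the other, where 44.2% to 47.0% were. Pbsn, the androgen-driven probasin gene of prostate epithelium, read 9.64 to 10.72 on the log2 scale on the 6 intact arrays and 4.92 to 6.05 on the 6 castrated arrays. Hoxb13, another prostate marker, was dim, detected on 5 of 12 and 7 of 9 arrays, and Epcam, an epithelial marker, was not detected. A few arrays stood apart. Castrated genistein arrays 1 and 3 had almost no seminal vesicle RNA, with Svs2 at 5.97 and 4.65 against 11.17 on array 2, and array 1 of the estradiol vehicle group lay far from its group on the first principal component (-63.6 against 9.75 to 22.8).

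The promoters of 3 members are shown as examples, and of the Pparg windows only the one with C/EBP matches. They are RefSeq sequences of build GRCm38.p6, from 250 bases before the annotated start to 50 after it, written 5′ to 3′ on the gene's strand, and capitals mark each match to TTGCNNAA, the C/EBP site.
Plin1, chr7:79732727-79733026, minus strand: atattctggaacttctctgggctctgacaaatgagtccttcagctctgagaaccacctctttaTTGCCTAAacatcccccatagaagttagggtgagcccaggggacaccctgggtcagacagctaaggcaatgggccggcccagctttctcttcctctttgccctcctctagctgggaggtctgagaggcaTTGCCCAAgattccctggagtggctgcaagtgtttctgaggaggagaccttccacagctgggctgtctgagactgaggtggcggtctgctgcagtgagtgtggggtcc
Pparg, the third annotated start, chr6:115421816-115422115, plus strand: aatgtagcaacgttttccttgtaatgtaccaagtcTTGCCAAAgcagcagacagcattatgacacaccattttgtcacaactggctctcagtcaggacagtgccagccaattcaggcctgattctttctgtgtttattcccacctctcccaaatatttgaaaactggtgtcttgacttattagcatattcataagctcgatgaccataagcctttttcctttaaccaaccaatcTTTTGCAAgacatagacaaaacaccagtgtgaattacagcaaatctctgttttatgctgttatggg
Adipoq, chr16:23146286-23146585, plus strand: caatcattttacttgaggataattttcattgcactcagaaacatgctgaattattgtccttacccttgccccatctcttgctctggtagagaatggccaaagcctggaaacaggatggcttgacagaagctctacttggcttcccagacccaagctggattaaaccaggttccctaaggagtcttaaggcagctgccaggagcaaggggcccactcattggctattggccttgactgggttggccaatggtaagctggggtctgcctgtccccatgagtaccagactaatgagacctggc

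The letters of 5 motifs were searched on both strands in the 12 windows of the 8 members that have one. The Plin1 window held TTGCNNAA at -187 and -58 from the start, the third Pparg window at -215 and -16, and the second Cidec window at -198. This motif was found in 10.8% of the 32851 promoters of the same length. TATAAA, present in 13.6% of promoters, was found in the second Pparg window alone, which holds no C/EBP match. No member window held the consensus letters of the PPAR and RXR direct repeat (0.3805% of promoters), the androgen response element (0.0396%) or the estrogen response element (0.0700%). A match describes letters in a window, and says nothing of whether a factor binds there.

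Values below are log2 of the normalized signal of 1 probe per gene, the brightest, and compare arrays for that probe only. A probe counted as detected where its detection p-value, which sets its signal against negative control beads, was under 0.05. Plin1, Cidec, Lipe, Pnpla2, Lpl, Pparg and Adipoq were detected on all 21 arrays. Retn was detected on 4 and Fabp4 on 1. A gene is said to have risen or fallen where its adjusted p from limma, over all 15406 genes tested (15088 in the estradiol experiment), was under 0.05.

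Castration was compared within vehicle-treated males and within genistein-treated males. In the genistein-treated males, 6 of the 8 members tested rose, by 2.20-fold to 2.74-fold: Plin1, Lipe, Pnpla2, Lpl, Pparg and Adipoq. Across all genes 11.2% rose in this comparison. In vehicle-treated males all 8 lay above 0 but none rose, where 11.1% of all genes did. Of these 8, Retn was kept for testing only through castrated arrays. An unadjusted p under 0.05 was reached by 7 of 8 members in genistein-treated males (35.1% of all genes) and by 1 of 8, Lpl, in vehicle-treated males (34.7%). The median log2 change of the 8 was 1.19 in genistein-treated and 0.46 in vehicle-treated males, beside 0.04 over all genes in each. In bulk tissue, more adipocytes and more RNA per adipocyte cannot be told apart. The 2 comparisons were not shown to differ, as the test of that difference further on reports.

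Plin1 encodes perilipin 1, the coat of the adipocyte lipid droplet. Its signal was 7.13, 7.71 and 6.53 in intact vehicle males and 5.86, 7.10 and 7.04 in intact genistein males. It was 7.60, 6.85 and 7.64 in castrated vehicle males and 8.61, 7.59 and 8.17 in castrated genistein males. The castrated genistein arrays all lay above the intact genistein arrays, while the vehicle groups overlapped. Plin1 rose with castration in genistein-treated males by 1.45 ± 0.39 (log2, SE; limma adjusted p = 0.0210). In vehicle-treated males its difference was 0.24 ± 0.39 (adjusted p = 0.705).

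Cidec encodes the protein that fuses small droplets into large ones. It read 9.76, 9.72 and 8.90 in intact vehicle, 8.12, 9.76 and 10.11 in intact genistein, 9.78, 9.36 and 10.07 in castrated vehicle and 10.66, 9.68 and 10.79 in castrated genistein males. Array 1 of the intact genistein males was below every other array of the experiment, and every pair of groups overlapped. The castration difference of Cidec was 1.05 ± 0.47 in genistein-treated males (limma adjusted p = 0.134) and 0.28 ± 0.47 in vehicle-treated males (adjusted p = 0.719).

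Pnpla2 encodes adipose triglyceride lipase, which takes the first fatty acid off stored triglyceride. Its signal was 12.80, 13.40 and 12.48 in intact vehicle males and 12.46, 12.92 and 12.91 in intact genistein males. It was 13.40, 13.25 and 13.58 in castrated vehicle males and 14.23, 13.55 and 14.07 in castrated genistein males. Each castrated genistein array exceeded each intact genistein array, and among vehicle arrays only intact array 2 reached the castrated range. Pnpla2 rose by 1.19 ± 0.24 in genistein-treated males (limma adjusted p = 0.00490), the smallest adjusted p of the members, and its difference was 0.51 ± 0.24 in vehicle-treated males (adjusted p = 0.151).

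Lipe encodes hormone-sensitive lipase, which takes the next fatty acid. It read 7.21, 7.59 and 7.13 in intact vehicle males and 6.67, 7.30 and 7.44 in intact genistein males. It read 7.74, 7.23 and 8.05 in castrated vehicle males and 8.76, 7.88 and 8.32 in castrated genistein males. The genistein groups did not overlap and the vehicle groups did. Lipe rose by 1.18 ± 0.28 with castration in genistein-treated males (limma adjusted p = 0.0102) and differed by 0.36 ± 0.28 in vehicle-treated males (adjusted p = 0.379). A dimmer Lipe probe, detected on 19 of 21 arrays, was not called, at 0.60 ± 0.29 in genistein-treated males (adjusted p = 0.163), so the 2 Lipe probes disagree on the call. The remaining Lipe probe was detected on no array.

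Lpl encodes lipoprotein lipase, which frees fatty acids from circulating lipoproteins for uptake and is also made in muscle and macrophages. Its signal was 13.57, 13.54 and 13.003 in intact vehicle males and 12.90, 13.45 and 13.76 in intact genistein males. It was 14.26, 13.70 and 14.21 in castrated vehicle males and 14.75, 14.36 and 14.43 in castrated genistein males. Castrated arrays lay above intact arrays in both treatments without overlap. Lpl rose by 1.14 ± 0.24 in genistein-treated males (limma adjusted p = 0.00592). In vehicle-treated males its difference of 0.68 ± 0.24 was the nearest of the members to the threshold (adjusted p = 0.0633).

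Pparg encodes PPAR gamma, the nuclear receptor that drives adipocyte differentiation. It read 9.03, 10.20 and 8.96 in intact vehicle males and 8.96, 9.14 and 10.04 in intact genistein males. It read 10.20, 10.08 and 10.13 in castrated vehicle males and 11.29, 10.54 and 10.44 in castrated genistein males. The 3 castrated vehicle arrays were nearly alike, and intact vehicle array 2 reached their level. Pparg rose by 1.37 ± 0.35 in genistein-treated males (limma adjusted p = 0.0169) and differed by 0.74 ± 0.35 in vehicle-treated males (adjusted p = 0.163). Tested probe by probe, a second Pparg probe also rose in genistein-treated males, by 1.37 ± 0.32 (adjusted p = 0.0107), and the remaining one, detected on 11 of 21 arrays, did not (0.82 ± 0.43, adjusted p = 0.205).

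Adipoq encodes adiponectin, a hormone secreted by fat cells that raises insulin sensitivity. Its signal was 12.37, 12.46 and 11.56 in intact vehicle males and 10.77, 12.25 and 12.47 in intact genistein males. It was 12.92, 12.68 and 12.77 in castrated vehicle males and 13.33, 12.79 and 13.39 in castrated genistein males. All 6 castrated arrays lay above all 6 intact arrays. Adipoq rose by 1.34 ± 0.38 in genistein-treated males (limma adjusted p = 0.0265) and differed by 0.66 ± 0.38 in vehicle-treated males (adjusted p = 0.248). Intact vehicle array 3 was the lowest of its group. Groups did not overlap, castrated higher, for 6 of 8 members in genistein-treated males (20.9% of all genes) and 2 of 8 in vehicle-treated males (21.6%). In neither were groups apart with castrated arrays lower for any member (17.5% and 17.9% of all genes).

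Retn encodes resistin, in mice a hormone of white fat. It was detected on 2 of 3 arrays in each castrated group, at 4.93 and 5.37 with vehicle and 5.22 and 5.34 with genistein, and on no intact array of the genistein experiment. It passed the filter on dim probes only through those castrated arrays, so the sign of its castration difference was partly set by that filter. It was not called (0.47 ± 0.22, limma adjusted p = 0.161 in genistein-treated males, and 0.41 ± 0.22, adjusted p = 0.215 in vehicle-treated males). The castrated genistein mean, which includes 1 undetected array, lay 0.05 (log2) above the lowest signal detected on the intact genistein arrays. This margin is smaller than the SE, and the castrated vehicle mean lay below the matching limit, so no lower bound can be given for either treatment. Fabp4 encodes a fatty acid carrier abundant in adipocytes, yet its only probe read 4.40 to 5.18 on the 21 arrays and was detected on castrated genistein array 1 alone. It did not pass the filter on dim probes and was not tested, and neither were the second probes of Plin1 and Lpl, which were detected on no array.

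**Figure D1:**
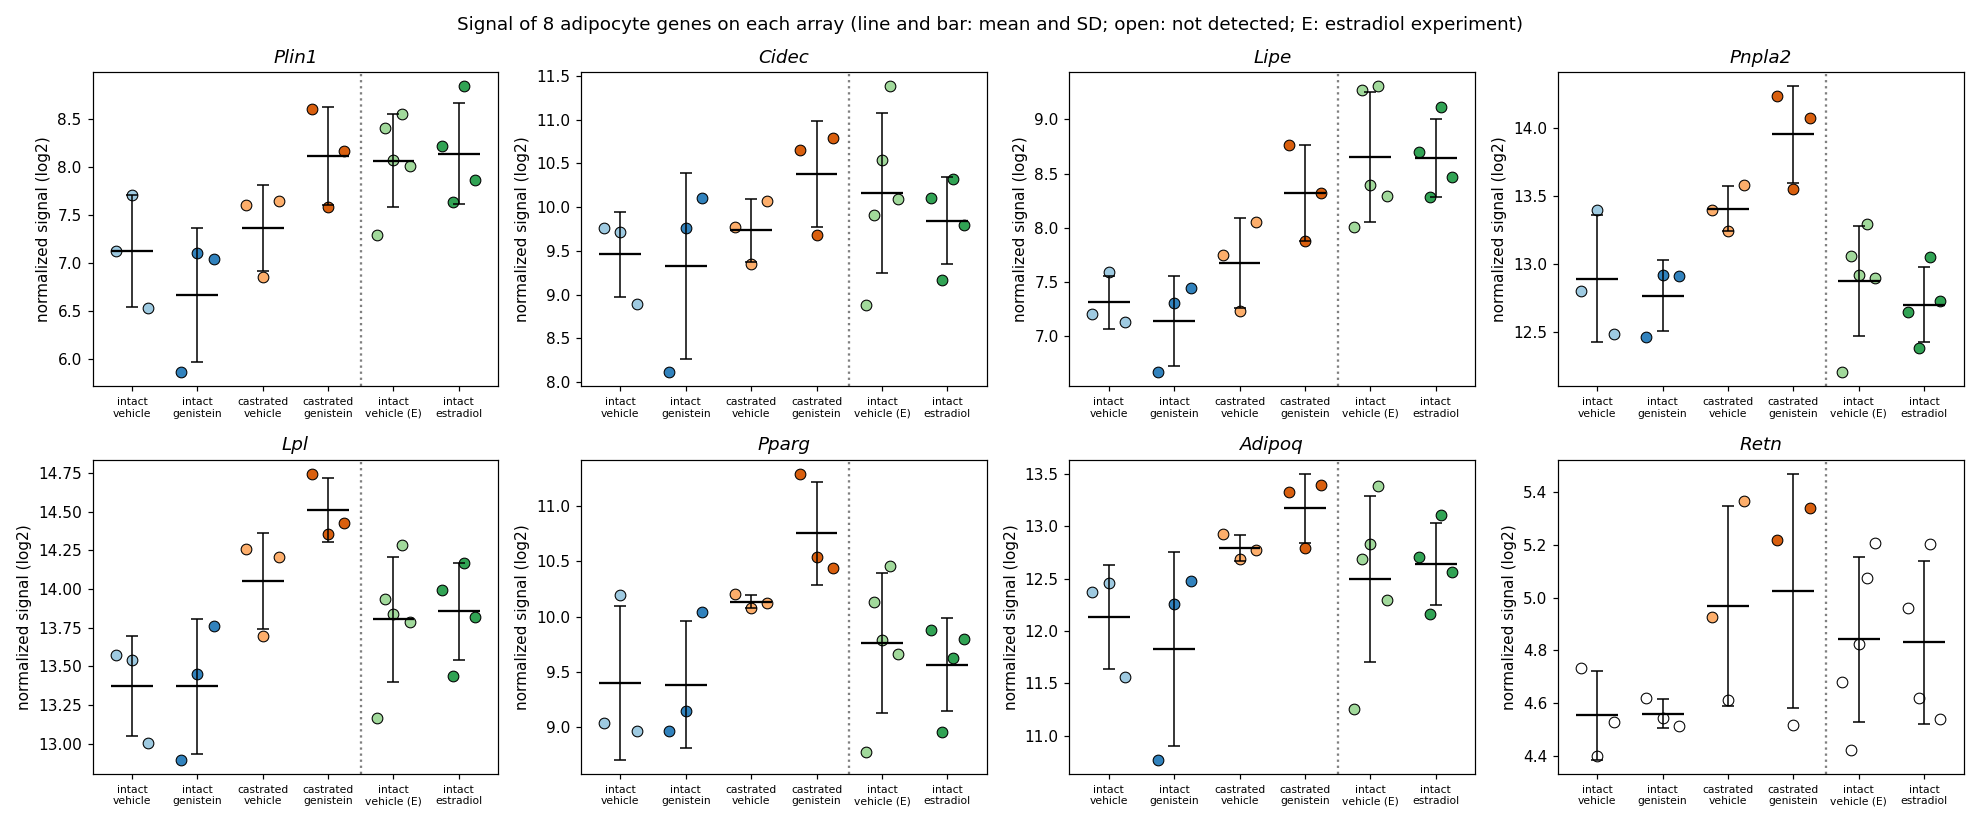
Normalized log2 signal of 8 adipocyte genes on each array, by group, with the estradiol experiment right of the dotted line. Points are arrays, open where the probe was not detected, and lines and bars are the group mean and SD (n = 3, 3, 3, 3, 5 and 4); the castrated genistein mean was the highest of the 4 genistein experiment groups for all 8 genes, and each gene has its own axis.

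Within the genistein experiment the order of the group means was the same for 7 of the 8 genes: castrated genistein, castrated vehicle, intact vehicle, intact genistein, from high to low. For Retn the 2 intact groups, neither detected, changed places. No member was called by limma between neighbours in that order. The arrays of neighbours nonetheless did not overlap for Lpl and Adipoq between castrated and intact vehicle males, and for Lpl and Pparg between castrated genistein and castrated vehicle males. For Adipoq, for example, the means from high to low were 13.17 ± 0.33, 12.79 ± 0.12, 12.13 ± 0.49 and 11.83 ± 0.93 (SD, n = 3).

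The calls in genistein-treated males rested in part on single arrays. Without castrated genistein array 1, 3 of 8 members rose, and without intact genistein array 1, 3 of 8 did, in each case Lipe, Lpl and Pnpla2. With both of these arrays left out, a check chosen after seeing the data, none rose and the median difference was 0.76. Fewer arrays make any gene harder to call, and the share of all genes called in these fits is not given here. Whether the lower counts are particular to the adipocyte genes was not tested. With castrated genistein arrays 1 and 3 left out, none of the 7 members then tested rose, with a median of 0.92 and the remaining array assumed to vary like the other groups. In vehicle-treated males, 1 member, Lpl, rose without castrated array 2, and 2, Pnpla2 and Pparg, rose without intact array 2.

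A contrast of all castrated against all intact arrays was added after the data were seen. In it 7 of 8 members rose, Cidec being the exception, with a median of 0.85, where 20.3% of all genes rose and 37.1% were called in either direction. Changes were 1.06 ± 0.25 for Pparg, 1.00 ± 0.27 for Adipoq, 0.91 ± 0.17 for Lpl, 0.85 ± 0.17 for Pnpla2, 0.85 ± 0.28 for Plin1 and 0.77 ± 0.20 for Lipe (limma adjusted p from 0.00145 for Lpl to 0.0317 for Plin1). Retn passed at 0.44 ± 0.16 (adjusted p = 0.0463), with its intact level below detection. It was kept for testing only through castrated arrays, so its call was partly set by the filter on dim probes. Leaving out castrated genistein arrays 1 and 3 left 3 members called.

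Some markers of other tissues were called with castration too. Over all genes, 11.1% rose and 10.0% fell in vehicle-treated males, and 11.2% rose and 10.9% fell in genistein-treated males. Macrophage genes rose for 11 of 11 tested in vehicle-treated and 8 of 11 in genistein-treated males, with a summed signal of 4446 to 7901 on the intact and 9773 to 12573 on the castrated arrays. Lpl and Pparg are also expressed by macrophages. In vehicle-treated and genistein-treated males in turn, lymphocyte genes rose for 5 and 3 of 5 tested, endothelial genes for 3 and 2 of 10, fibroblast genes for 5 and 2 of 8 and urothelial genes for 2 and 3 of 6, while 1 of those 6 fell in each treatment. Smooth muscle genes fell for 3 and 7 of 10, skeletal muscle genes for 1 and 1 of 11, basal epithelial genes for 1 and 1 of 5 and luminal genes for 3 and 2 of 6, with 1 luminal gene higher in vehicle-treated males. Of 3 nerve and glia genes 1 fell in vehicle-treated males, and none of 3 red blood cell genes was called. Among 5 tested genes that fasting and PPAR receptors induce, Pdk4, a kinase that limits glucose oxidation, rose in both treatments (1.69 and 1.74). Angptl4 (1.24), an inhibitor of lipoprotein lipase, Cpt1b (1.00) and Acadm (0.69), an enzyme of fatty acid oxidation, rose in genistein-treated males, 4 of 5 against 1 of 5. Angptl4 and Cpt1b also stand in the white and brown adipocyte lists described further on. Seminal vesicle genes fell for 4 of 6 tested in genistein-treated males, and their summed signal was 4411 and 1134 on castrated genistein arrays 1 and 3, against 55596 on array 2 and 57778 to 102035 on the castrated vehicle arrays. The 2 arrays lowest in seminal vesicle RNA were those with the higher summed adipocyte signal in their group, at 61949 and 53838 against 42897. The part of these tissues and of fasting in the adipocyte result was not tested, beyond the counts without those arrays given above.

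Genistein was compared with vehicle in castrated and in intact males, and no adipocyte gene was called in either, in comparisons that called 0 and 1 of 15406 genes. In castrated males all 8 members lay above 0, with a median of 0.58 beside -0.0044 over all genes, and 0 of 8 were called by limma, as for all 15406 genes (0%). Lipe (0.65 ± 0.28) and Pnpla2 (0.54 ± 0.24) had unadjusted p under 0.05, 2 of 8 where 9.47% of all genes did, and their adjusted p were 0.490 and 0.511. Plin1 was highest at 0.76 ± 0.39 (adjusted p = 0.583), and Retn lowest at 0.06 ± 0.22. Genistein arrays lay wholly above vehicle arrays for Lpl and Pparg, 2 of 8 where 8.06% of all genes did so. Leaving out castrated genistein arrays 1 and 3 brought the median to 0.21, the lowest of the alternatives, which ran up to 0.74.

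In intact males 7 of 8 members lay below 0, with a median of -0.13, and again 0 of 8 were called by limma (0.00649% of all genes). Before adjustment 0 of 8 had a p under 0.05 (7.41% of all genes). For none were the groups apart with genistein higher (5.45% of all genes) or lower (5.22%). The range was from -0.45 ± 0.39 for Plin1 to 0.01 ± 0.22 for Retn, and Lpl and Pparg stood at -0.00 ± 0.24 and -0.01 ± 0.35. Intact genistein array 1 was the lowest of its group for all 7 detected members. Without that array the median was 0.13, and without array 3 of the same group it was -0.33, the ends of its range over the alternatives.

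The difference between the genistein responses of castrated and intact males, which is also the difference between the 2 castration comparisons, was above 0 for all 8 members, with a median of 0.68. That median was 0.32 without intact genistein array 1, 0.31 without castrated genistein arrays 1 and 3 and 0.97 without intact genistein array 3. The difference was called for 0 of 8 by limma (0% of all genes), and before adjustment 0 had a p under 0.05 (7.28% of all genes). Adjusted p ran from 0.685 for Plin1 (1.21 ± 0.56) to 0.984 for Retn. A p over the threshold does not show that the responses were alike.

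**Figure D2:**
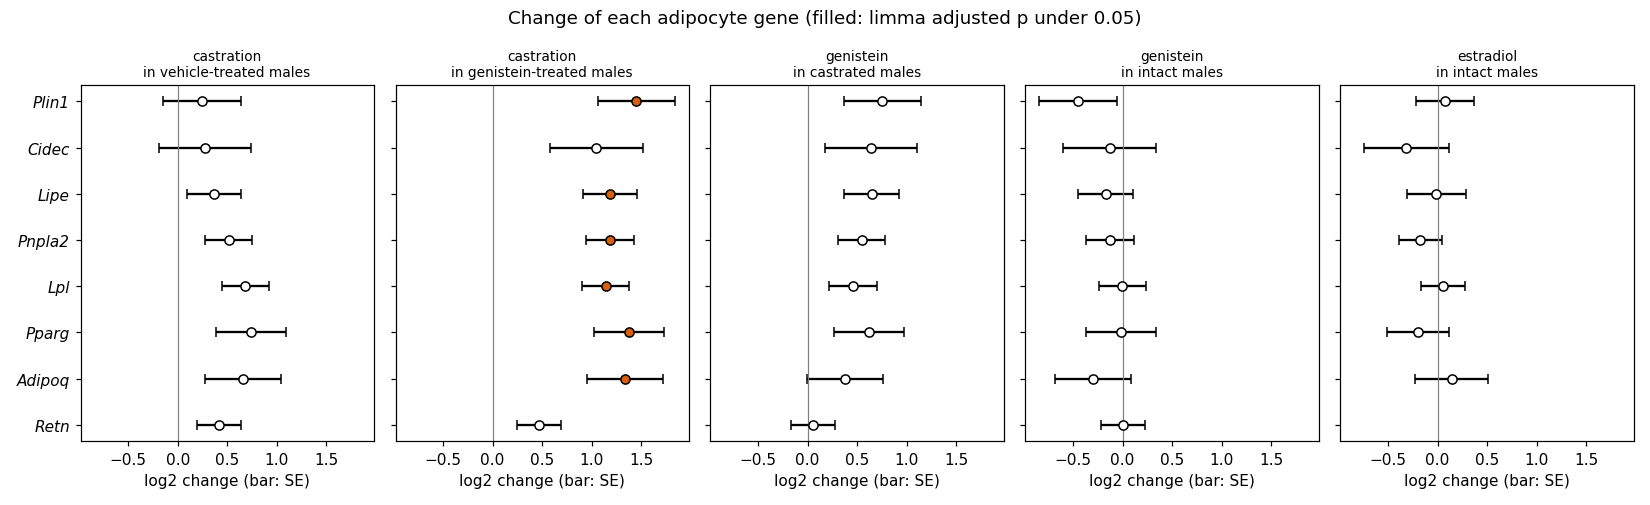
Log2 change of each of 8 adipocyte genes (rows) in 5 comparisons (panels), with bars of 1 standard error and filled points where the limma adjusted p was under 0.05. Filled points occur in 1 panel, castration in genistein-treated males, for 6 of 8 genes; Retn was not tested in the estradiol experiment.

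Estradiol given to intact males was compared with its own vehicle group. None of the 7 members tested was called by limma (0% of 15088 genes), none had an unadjusted p under 0.05 (6.92% of all genes), and the median change was -0.01. Changes ran from -0.32 ± 0.43 for Cidec to 0.14 ± 0.37 for Adipoq, with adjusted p of 0.908 or more. Tested probe by probe, the second Pparg probe differed by -0.87 ± 0.27 (limma unadjusted p = 0.00865, adjusted p = 0.633). That probe was dim, detected on 5 of 5 vehicle and 2 of 4 estradiol arrays, and the brightest Pparg probe differed by -0.20 ± 0.32. Every gene's estradiol arrays fell within or across the vehicle range.

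Adipoq read 11.26, 12.69, 12.83, 13.38 and 12.30 on the 5 vehicle arrays and 12.70, 12.17, 13.11 and 12.56 on the 4 estradiol arrays. Cidec read 8.89, 9.91, 10.54, 11.38 and 10.09 with vehicle and 10.10, 9.17, 10.32 and 9.79 with estradiol. Plin1 read 7.30, 8.41, 8.07, 8.56 and 8.01 with vehicle and 8.23, 7.63, 8.85 and 7.87 with estradiol. For all 3 genes vehicle array 1 was the lowest of its group and array 4 the highest, and for Adipoq and Cidec the estradiol arrays lay inside those limits.

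Lpl read 13.17, 13.94, 13.84, 14.29 and 13.79 with vehicle and 13.99, 13.44, 14.17 and 13.82 with estradiol. Pnpla2 read 12.21, 13.06, 12.92, 13.29 and 12.90 with vehicle and 12.64, 12.38, 13.05 and 12.72 with estradiol. Pparg read 8.78, 10.13, 9.79, 10.46 and 9.66 with vehicle and 9.88, 8.95, 9.62 and 9.80 with estradiol. The estradiol arrays of these genes also lay between vehicle arrays 1 and 4. Lipe read 8.00, 9.27, 8.39, 9.31 and 8.29 with vehicle and 8.70, 8.29, 9.12 and 8.47 with estradiol. Retn and Fabp4 were detected on none of the 9 arrays. Without vehicle array 1, which stands apart, the median change was -0.17 and none was called. All 4 estradiol arrays lay on 1 chip with vehicle arrays 1 and 2, and the other vehicle arrays lay on other chips. With chip as a block the median change was 0.29, and on that chip alone it was 0.29, again with none called. These are not 2 separate checks, since both set the estradiol arrays against vehicle arrays 1 and 2 only. Vehicle array 1 was the lowest of its group for all 7 members.

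The members varied more between arrays of 1 group than most genes. The residual SD of the 8 members tested in the genistein experiment had a median of 0.449, against 0.215 over all genes tested. For the 7 members tested in the estradiol experiment it was 0.509, against 0.261. Cidec had the widest spread, 2.50 on the log2 scale or 5.64-fold between estradiol vehicle arrays 1 and 4. Adipoq spanned 4.36-fold in the same group and 3.25-fold among the intact genistein arrays. Lpl was among the steadier members, with at most 1.82-fold within a group of the genistein experiment and 2.17-fold in the estradiol experiment.

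This spread was shared. After each gene's group mean was subtracted, all 7 detected members were the lowest of their group on 5 arrays: castrated vehicle array 2, intact vehicle array 3, intact genistein array 1, estradiol vehicle array 1 and estradiol array 2. Their mean deviation on those arrays was -0.29, -0.44, -0.68, -0.89 and -0.48. All 7 were above their group mean on another 5: castrated genistein array 1, intact vehicle array 2, intact genistein array 3, estradiol vehicle array 4 and estradiol array 3, with mean deviations of 0.35, 0.42, 0.47, 0.69 and 0.41. Both sets drew on castrated and intact males and on vehicle and treated males.

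**Figure D3:**
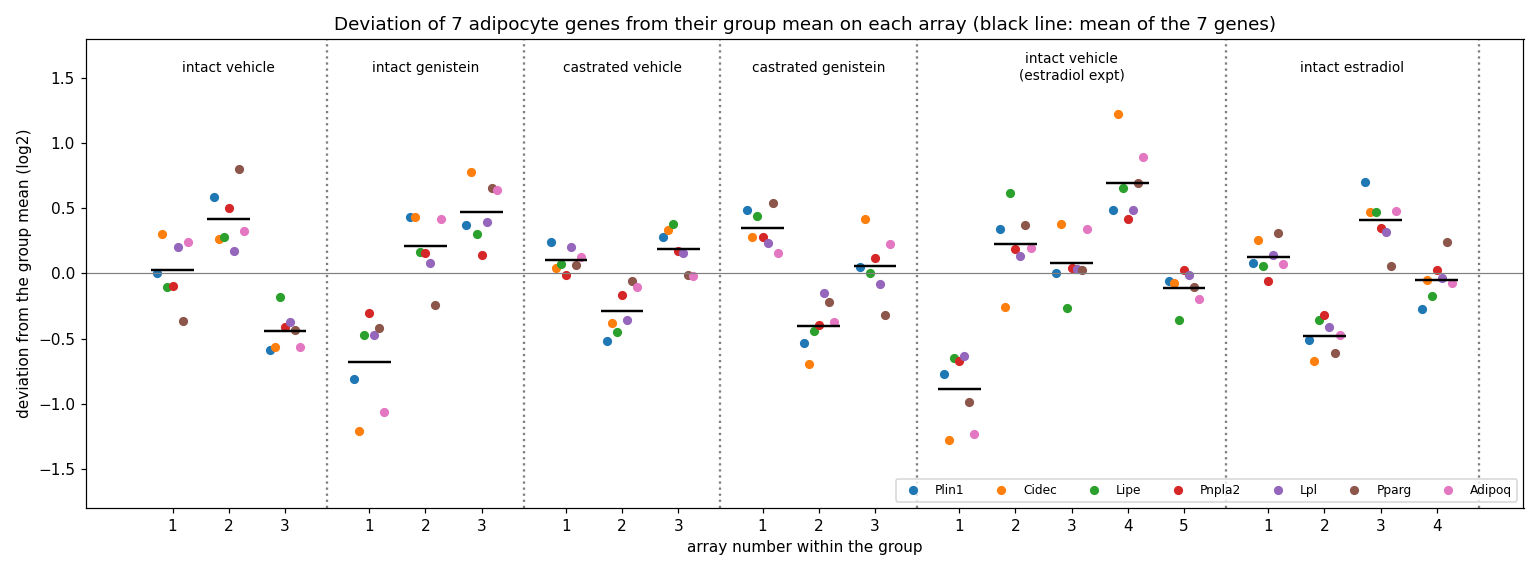
Deviation of 7 adipocyte genes from their group mean on each of 21 arrays, in log2 units, 1 colour per gene, with the mean of the 7 as a black line. The genes lie on the same side of 0 on arrays such as intact genistein array 1 (mean -0.68) and estradiol vehicle array 4 (mean 0.69).

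Over the 21 arrays, the Pearson r between a member's deviation and the mean of the other 6 was 0.95 for Lpl, 0.93 for Plin1 and Adipoq, 0.92 for Pnpla2, 0.90 for Cidec, 0.86 for Lipe and 0.79 for Pparg. Spearman's rho was 0.96 for Plin1 and 0.75 for Pparg, the highest and lowest. Leaving out the 2 arrays farthest from the median, intact genistein array 1 and estradiol vehicle array 1, gave r from 0.70 for Pparg to 0.92 for Lpl. Within the 12 arrays of the genistein experiment r ran from 0.67 for Pparg to 0.96 for Plin1, and within the 9 of the estradiol experiment from 0.84 for Lipe to 0.99 for Lpl. Among the 21 pairs of members, r was lowest for Cidec with Pparg (0.70) and highest for Adipoq with Cidec (0.95). These values are descriptions, since the points share an array, its normalization and the subtraction of the same group means.

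Of 11478 other genes with a symbol, those most like the mean deviation of the 7 members were Prkar2b (r = 0.97), Mrap (0.96), Aoc3 (0.96), Plin4 (0.95), Tmem120a (0.95), Abcd2 (0.94), Rgcc (0.94), Hcar1 (0.93), Slc1a3 (0.93), Ffar2 (0.93), Cdkn2c (0.93) and Prxl2a (0.93), over 21 arrays. The median r of all these genes was -0.04, and 0.810% of them exceeded 0.8. Prkar2b encodes a regulatory subunit of protein kinase A, Plin4 another droplet coat protein, Mrap an accessory protein of the adrenocorticotropin receptor, Aoc3 a surface amine oxidase, and Hcar1 and Ffar2 receptors for lactate and short-chain fatty acids. Without the same 2 far arrays, r of the 12 ran from 0.89 for Ffar2 to 0.96 for Aoc3. The lowest r belonged to Igsf5 (-0.88), Tfap2c (-0.87) and Arhgef18 (-0.85).

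Prkar2b read 11.06, 11.67 and 10.78 in intact vehicle males, 10.66, 11.30 and 11.65 in intact genistein males, 12.25, 12.11 and 12.39 in castrated vehicle males and 13.06, 12.52 and 12.74 in castrated genistein males. Its castrated and intact arrays did not overlap. Prkar2b rose with castration in both treatments (1.08 ± 0.27, limma adjusted p = 0.0135 with vehicle, and 1.57 ± 0.27, adjusted p = 0.00186 with genistein). Hcar1 and Ffar2 also rose in both, by 1.36 and 1.75 and by 1.85 and 1.61 in vehicle-treated and genistein-treated males. Mrap (1.66), Abcd2 (1.27), Prxl2a (1.14), Tmem120a (1.01) and Cdkn2c (0.89) rose in genistein-treated males and were not called in vehicle-treated males (0.41 to 0.65), which made 8 of 12 and 3 of 12 called. Aoc3 (0.11 and 0.76), Plin4 (0.32 and 0.63), Rgcc (-0.08 and 0.64) and Slc1a3 (0.36 and 0.96) were called in neither. The share of all genes that rose was 11.2% in genistein-treated and 11.1% in vehicle-treated males.

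A list of 43 other white adipocyte genes, 36 of them tested, was set beside the members. In genistein-treated males 22 of 36 rose with castration, where 11.2% of all genes did, and 0 fell, with a median of 1.08. The largest were Adig (2.68), a small membrane protein of adipocytes, Orm1 (2.05), an acute phase protein, Aqp7 (1.75), the glycerol channel, Thrsp (1.72), a lipogenic nuclear protein, Rbp4 (1.70), the retinol carrier, and Pcx (1.67), pyruvate carboxylase. In vehicle-treated males 5 of 36 rose, close to the 11.1% of all genes that did, with a median of 0.60. The 5 were G0s2 (1.81), which inhibits the Pnpla2 lipase, Adig (1.61), Rbp4 (1.15), the factor Cebpb (0.91) and the desaturase Scd1 (0.77). In genistein-treated males the count was 12 without castrated array 1, 13 without intact array 2 and 27 without intact array 3. In vehicle-treated males it was 13 without intact array 2, 3 without castrated or intact array 1, and 2 without castrated or intact array 3. Without castrated genistein arrays 1 and 3 the count was 2, and without castrated and intact genistein arrays 1 it was 8.

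Adig read 8.66, 9.54 and 8.64 in intact vehicle, 7.61, 8.55 and 9.30 in intact genistein, 10.40, 10.36 and 10.92 in castrated vehicle and 11.50, 10.72 and 11.27 in castrated genistein males. Every castrated array lay above every intact array. G0s2 read 9.81, 9.43 and 9.30 in intact vehicle and 11.47, 11.39 and 11.12 in castrated vehicle males, without overlap, and 10.63, 10.78 and 9.44 in castrated genistein males. Its genistein difference in castrated males, -1.04, was opposite in sign to that of the members and was not called (limma adjusted p = 0.321). Lep, the leptin gene, and Nnat, neuronatin, were among the 4 of 36 genes below 0 with castration in vehicle-treated males. Within groups they did vary with the members, with r of 0.56 and 0.68 to the members' mean deviation over 21 arrays. Lep differed by -0.85 in vehicle-treated and -0.18 in genistein-treated males with castration, and Nnat by -1.06 and 0.17, none of them called. With genistein in intact males they had the largest differences of the list, -1.36 for Lep and -1.37 for Nnat (limma adjusted p = 0.694 and 0.678). In castrated males the largest were Gpd1 (1.07) and G0s2, and with estradiol Sncg (0.59) and Fasn (-0.57). None of the 36 was called in a genistein or estradiol comparison.

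Brown adipocyte markers were measured as well. With castration 5 of 8 tested rose in genistein-treated males: Elovl3 (2.37), a fatty acid elongase, Ucp1 (1.49), the uncoupling protein of heat production, Cidea (1.24), a droplet protein, Ppargc1a (1.02), a coactivator of mitochondrial genes, and Cpt1b (1.00), which carries fatty acids into mitochondria. In vehicle-treated males Elovl3 (2.20) and Ucp1 (1.32) rose, 2 of 8. Across all genes 11.2% rose in genistein-treated and 11.1% in vehicle-treated males. Ucp1 read 11.04, 12.76 and 11.88 in intact vehicle, 11.71, 12.54 and 12.73 in intact genistein, 12.97, 13.01 and 13.65 in castrated vehicle and 14.02, 13.74 and 13.70 in castrated genistein males, and the castrated arrays all exceeded the intact ones. The median r of 7 brown markers with the members' mean deviation was 0.57, against 0.77 for the 36 white genes. Over the 12 genistein experiment arrays r was 0.66 for Cidea, 0.63 for Ucp1 and 0.58 for Elovl3. It was 0.26 for Cpt1b, 0.25 for Cox8b, 0.08 for Ppargc1a and -0.01 for Cox7a1, so the list did not move as 1. Zic1, a marker of classical brown fat, was detected on no array. In vehicle-treated males the count was 3 without intact array 2 and 1 without any other single array. In genistein-treated males it was 1 without castrated array 1, 2 without intact array 1 or 2, 3 without castrated array 3, and 0 without castrated and intact genistein arrays 1, or without castrated genistein arrays 1 and 3. Elovl3 (-0.92) and Ucp1 (-0.65) had the largest differences with estradiol, Elovl3 (0.70) and Cidea (0.68) with genistein in castrated males, and Elovl3 (0.53) and Cox7a1 (0.50) with genistein in intact males, none called.

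Of 7 tested genes of adipocyte progenitors, Pi16 rose in both treatments (1.21 and 1.64), Dpt (0.90) and Pdgfra (0.63) with castration in vehicle-treated males, and Cd34 (0.55) in genistein-treated males. That made 3 of 7 in vehicle-treated and 2 of 7 in genistein-treated males, where 11.1% and 11.2% of all genes rose. Pi16 marks early progenitors, while Dpt and Pdgfra are shared with fibroblasts, of whose list 5 of 8 tested genes rose in vehicle-treated males. Without castrated array 1 the count in vehicle-treated males was 1 of 7 and not 3, and in genistein-treated males it was 1 and not 2 without castrated array 1 or 3 or intact array 1 or 2. The median r of the 7 with the members' deviation was 0.42. None of the 7 was called with genistein or estradiol, where the largest differences were -0.78 for Dpp4 and 0.51 for Dlk1 in castrated males, 0.32 for Pdgfra and 0.25 for Dpt in intact males, and -0.39 for Cd34 and 0.11 for Zfp423 with estradiol.

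**Figure D4:**
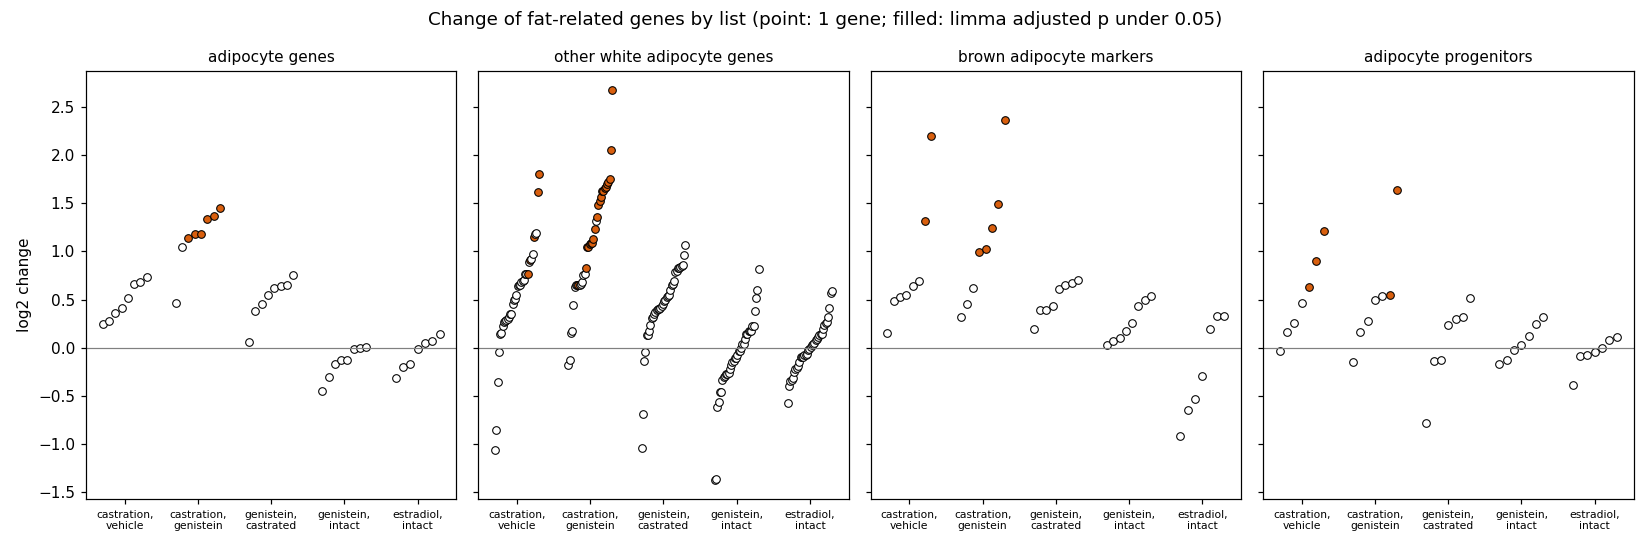
Log2 change of each gene of 4 fat-related lists (panels) in 5 comparisons, sorted by size within a comparison, filled where the limma adjusted p was under 0.05. Filled points occur only in the castration comparisons of these lists, 22 of 36 for other white adipocyte genes and 6 of 8 for the adipocyte genes in genistein-treated males, where 11.2% of all genes rose.

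Marker lists of other tissues were set against the members' mean deviation over the 21 arrays. Median r was 0.51 for 11 macrophage, 0.58 for 3 red blood cell, 0.24 for 10 endothelial and 0.23 for 11 skeletal muscle genes. The experiments differed for macrophage genes, though not for these alone. Their r ran from -0.27 (Cd14) to 0.43 (C1qc) over the 12 genistein experiment arrays, and from 0.21 (Mrc1) to 0.92 (Aif1) over the 9 of the estradiol experiment. Genes of other lists differed too, some upward, as Tie1 (-0.16 and 0.62) and Upk2 (-0.15 and 0.78), and some downward, as Dcn (0.40 and -0.31). The 9 arrays include estradiol vehicle array 1, which stands apart, and no r of these lists without it is given. Over the 21 arrays r was below 0 for 6 of 6 luminal epithelium genes (median -0.39) and 6 of 6 seminal vesicle genes (median -0.35). Other epithelia were mixed: basal genes had a median of -0.19 with 4 of 5 below 0, and urothelial genes a median of 0.22 with 2 of 6 below 0. Whether these values follow from the share of each tissue in the dissection was not tested.

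**Figure D5:**
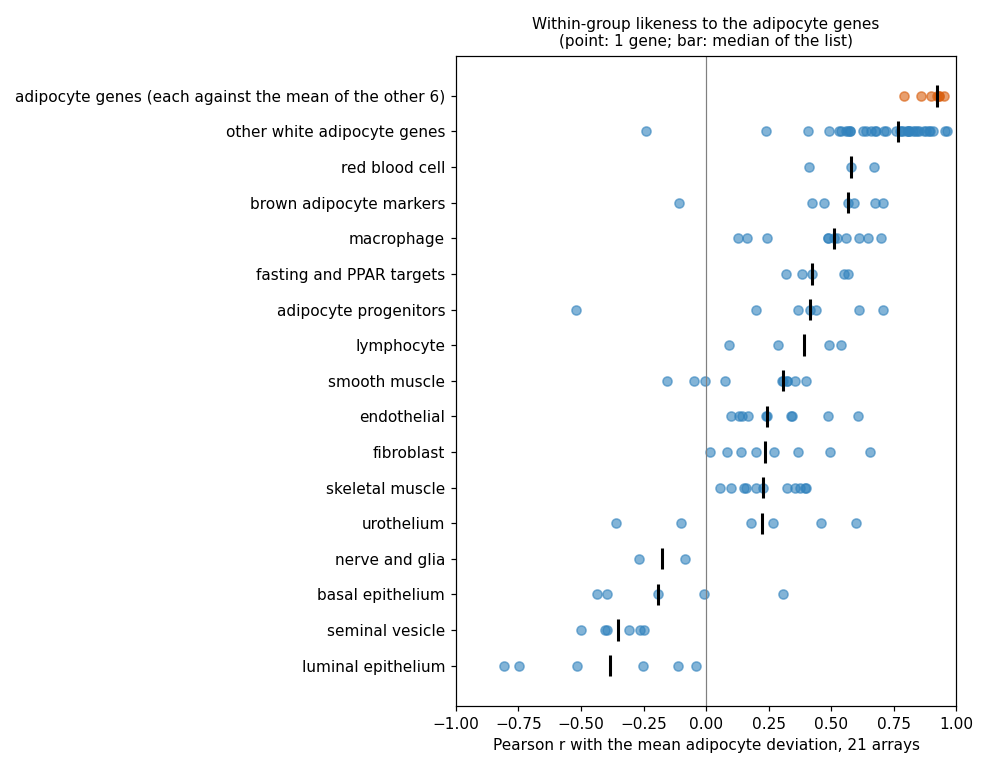
Pearson r, over 21 arrays, between each marker gene's deviation from its group mean and the mean deviation of the 7 adipocyte genes, by marker list, with the list's median as a bar. The median is 0.77 for the 36 other white adipocyte genes and below 0 for luminal epithelium (-0.39) and seminal vesicle (-0.35); each adipocyte gene is set against the mean of the other 6.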

How the data were processed

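Prostate RNA of 21 samples was read on Illumina bead arrays. The authors deposited, per experiment, a non-normalized intensity for each probe and a detection p-value, which were used here. The submitters' processing notes name BeadStudio, with no version, and the deposited series matrix, whose normalization none of the sources describes, served as an alternative. Its deposited intensity values were floored at 1. Depth has no counterpart on arrays, and the number of arrays limits precision.

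Each experiment was normalized by itself with limma 3.58.1 in R 4.3.3 (neqc: normexp background from detection p-values, offset 16, quantile, log2). Probes with detection p under 0.05 on at least 3 arrays were kept, 22332 and 21835 of them, and the brightest kept probe stood for a gene. Groups came from the sample titles. Changes were tested with lmFit and eBayes, two-sided, with Benjamini-Hochberg adjustment over all genes, in a fit of 4 groups over 12 arrays (8 residual degrees of freedom) or of both groups over 9 arrays (7). The test was checked on simulated data with independent noise for each gene and array. That check held no chip effect and no deviation shared by the genes of an array, so it does not cover these. Deviations from group means were correlated as a description.

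Genes named beyond the members were, per fat-related list, up to 6 called per comparison and direction or else the 2 with the largest change, and the 12 highest and 3 lowest by r. Members and lists were chosen with earlier results of these data known. Probes were named through GEO's platform annotation. Replicate numbers did not pair samples: same-numbered samples correlated at -0.28 to 0.16 (18 pairs) and 0.03 to 0.34 (4 pairs).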

Additional observations from a re-analysis of the deposited data

How the results depend on the processing

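Counts with arrays left out are given without the share of all genes called in the same fits, and fewer arrays make any gene harder to call. For castration in genistein-treated males, leaving out 1 array gave 3 to 7 members called, and the median change was 0.76 to 1.40 over 17 alternatives. The count was 0 without castrated genistein arrays 1 and 3, and 0 without castrated and intact genistein arrays 1. For castration in vehicle-treated males it was 0 to 2 with 1 array left out and 1 with an offset of 50 (Lpl). For castration over both treatments it was 5 to 7, and 3 without castrated genistein arrays 1 and 3. The genistein and estradiol comparisons and the difference between genistein responses gave 0 members called under every alternative run. Their medians ran from 0.21 to 0.74 for genistein in castrated males, -0.33 to 0.13 in intact males, 0.31 to 0.97 for the difference between them and -0.17 to 0.29 for estradiol, and from 0.32 to 0.65 for castration in vehicle-treated males. With the replicate number as a block, which the labels do not tie to a shared animal or day, the counts were 0 and 6 for castration in vehicle-treated and genistein-treated males, 6 for both, and 0 elsewhere. Of the 12 genes most like the members, 5 were also among the 12 most alike over the 9 estradiol arrays. No called change of a single member reversed. Scaling to the median moved the median of all genes by 0.14 for castration in vehicle-treated males, 0.11 for genistein in intact males, -0.15 for the difference between genistein responses and 0.16 for estradiol, so values there are relative to that shift. Retn, near the detection limit, allows no firm size of change, and Fabp4 was not tested.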
